A study of Mus musculus with 6 samples.

Results

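The heat shock proteins and J-domain chaperones are the core of the machinery that folds proteins, prevents their aggregation and hands damaged ones to degradation. They were described here in BV2 cells, an immortalised mouse microglial line, stimulated with LPS with or without overexpression of PGC-1α, a transcriptional coactivator known for mitochondrial biogenesis. Members were chosen by gene symbol alone, namely the HSP70, HSP110 and HSP90 chaperones, the small heat shock proteins, the DNAJA, DNAJB and DNAJC families, the heat shock factors Hsf1 and Hsf2, and the BAG cochaperones with Hspbp1, and the mitochondrial Hspa9, Hspd1, Hspe1 and Dnajc19 were set aside. The rule gave 76 genes, of which 75 had a probe, among 23462 genes with a probe on the array. A total of 65 could be tested, among 17063 genes tested in all.

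HSP70 proteins bind exposed hydrophobic stretches of unfolded clients in a cycle driven by ATP. J-domain proteins deliver the clients and stimulate ATP hydrolysis, while HSP110 and BAG proteins act as nucleotide exchange factors that release them. HSP90 completes the folding of signalling proteins, small heat shock proteins hold unfolded clients without ATP, and HSF1 induces many of these genes when unfolded proteins accumulate in the cytosol. The endoplasmic reticulum has its own HSP70 (Hspa5, also called BiP), HSP90 (Hsp90b1, GRP94) and J-domain partners, which the unfolded protein response induces. In microglia these systems are known to be engaged when stimulated cells make large amounts of secreted and membrane proteins.

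RNA from 6 arrays was compared, 3 of control cells without and 3 of cells with overexpression, and all 6 held LPS-treated cells, so that no array showed the level without LPS. According to the study's methods, BV2 cells were infected with a lentivirus that carried PGC-1α or a negative control in a vector with a Ubi promoter, EGFP and puromycin resistance, and the PGC-1α-overexpressing cells were selected with puromycin. The cell culture methods gave LPS as 500 ng/ml for 6 h without naming the arrays. The labels did not say whether replicates came from separate cultures, so the p-values measure only the spread between these arrays. The control arrays were brighter throughout, with a 75th percentile of intensity of 1617 to 1893, whereas that of overexpression arrays was 856 to 1268. Both probes of Ppargc1a, which encodes PGC-1α, lay near background, well above it on 2 of 3 control arrays each and on 2 and 1 of 3 overexpression arrays, and could not be tested. The overexpression labels thus had no firm check in these data. Of 10 microglial markers, 9 were well above background on all 6 arrays, Cx3cr1 being the exception. By percentile scaling, described below, 6 were higher with overexpression, where 36.9% of all genes were. Their summed linear level was 92.5 to 98.5 in control and 137 to 162 in overexpression arrays. Their median log2 level of 2.93 lay in the brightest of 10 bins of genes by signal. In that bin the median log2 difference over all genes was 0.52, and 0.01 by quantile normalization. The part of this shift in the summed levels was not tested. Of the markers of other cells, 4 of 5 for fibroblasts were above background on all arrays (summed level 15.4 to 16.5 in control, 26.6 to 32 in overexpression), 3 of 5 for neurons (24.3 to 29.8, 36.5 to 49.8), 3 of 5 for astrocytes (0.248 to 0.297, 0.426 to 0.547) and 4 of 5 for oligodendrocytes (1.05 to 1.15, 1.18 to 1.33). Of tested markers, percentile scaling called 3 of 4 for fibroblasts higher and 1 lower, and 2 of 4 for neurons higher and 1 lower. For astrocytes 2 of 3 were higher and for oligodendrocytes 1 of 5, with none lower. Of all genes 36.9% were higher and 19.6% lower. The part of any of these cell types in the results was not tested, and fewer expressing cells cannot be told apart from less RNA per cell.

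Values are log2 intensities relative to the 75th percentile of the same array, and a difference of 1 on this scale is a doubling. Groups were compared with limma, and a gene was called when its Benjamini-Hochberg adjusted p, taken over all genes tested, was under 0.05. By this scaling the median gene was 0.23 higher with overexpression, and the shift depended on brightness. With genes split into 10 equal bins by mean signal, the median log2 difference over all genes was 0.52 in the brightest bin, while in the middle bins it was -0.13. Quantile normalization, which gives all arrays the same distribution, brought the median gene to 0.03 and the brightest bin to 0.01. The dimmest bin, at 0.62 by percentile scaling, was still at 0.38 and the next ones at 0.34 and 0.26, so that a call of a dim gene under both scalings is not free of the shift. The main changes are given under both scalings.

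By percentile scaling 20 of the 65 chaperone genes (30.8%) were higher with overexpression and 13 were lower, against 36.9% and 19.6% of all genes tested. By quantile normalization 10 (15.4%) were higher and 14 (21.5%) lower, against 21.7% and 20.9% of all genes. Under both scalings 10 were higher, against 21.6% of all genes, and 13 were lower, against 18.7%. Among these 23 genes Hspb2, Dnajb7 and the dim probe of Dnaja1 entered the test only through the group in which they were brighter. With signal well above background required on all 6 arrays, 19 genes were higher and 11 lower by percentile scaling. The tested probe of Hspa5, which lacks an array through an outlier mark, does not meet that requirement either. These counts therefore do not show the removal of Hspb2, Dnajb7 and Dnaja1 alone. The median log2 change of the chaperone genes was 0.24 by percentile scaling and -0.01 by quantile normalization. With a change of at least 2-fold by percentile scaling added to the threshold, 3 were higher and 6 lower, where 6.72% and 7.53% of all genes were. Hspb2 was among these 3 and Dnajb7 among these 6. Of the 62 chaperone genes with a value on every array, 42 (67.7%) had groups that did not overlap, 27 with overexpression higher and 15 with it lower, against 65.5% of all such genes. The family thus held calls in both directions, and its shares lay near or below those of all genes. Among genes above background on every array, Hspa2, Dnajb1 and Bag5 had the strongest decreases by percentile scaling. The strongest increases were those of Dnajb8, a dim probe, and of Hspa5 on the arrays where it was measured.

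**Figure D1:**
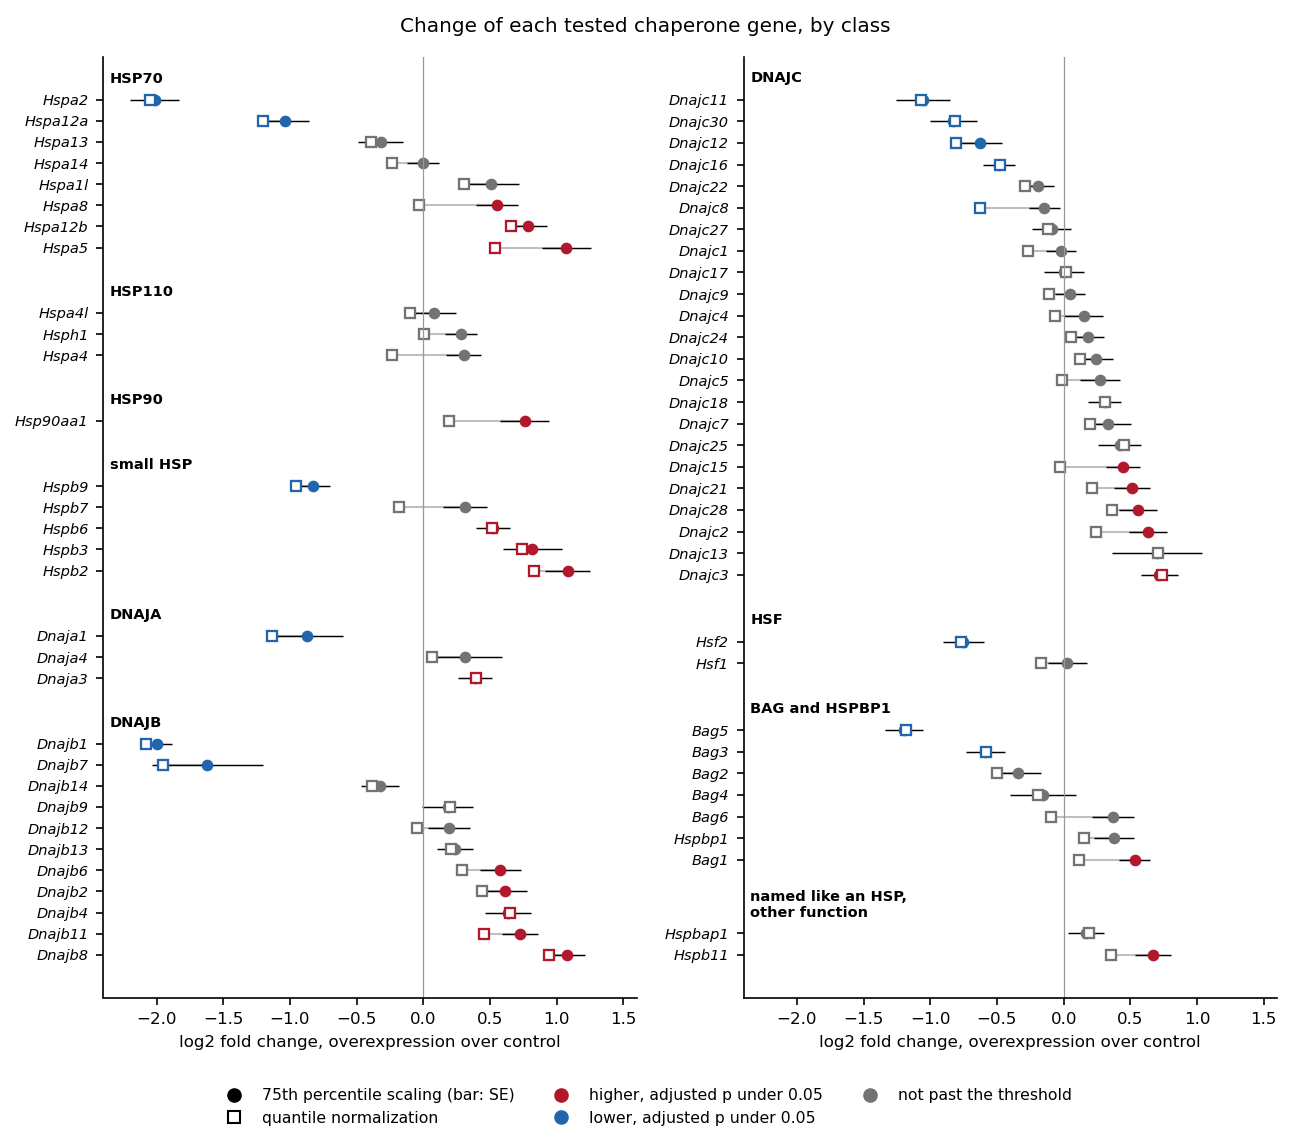
Log2 fold change (overexpression over control, 3 arrays each) of the 65 tested chaperone genes, grouped by class. Filled circles show percentile scaling with the standard error, open squares quantile normalization, and colour marks genes past an adjusted p of 0.05; Dnajb1 and Hspa2 lie near -2 under both scalings, while Hspa8, Hsp90aa1, Bag1 and Dnajc15 are past the threshold only by percentile scaling.

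Among the heat-inducible cytosolic chaperones the J-domain protein Dnajb1 (HSP40), the main partner of stress-induced HSP70, showed the clearest change. It read 1.74, 1.75 and 1.61 in control and -0.28, -0.37 and -0.24 in overexpression arrays. Every overexpression array lay far below every control array. The log2 difference was -2.0 (SE 0.12, limma adjusted p = 2.9e-05), a 4.0-fold decrease, and -2.08 by quantile normalization. It was -2.08 on the first slide, which held 2 arrays of each group, and -1.85 on the second, which held 1 of each, and all 20 alternative settings gave the same call.

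Bag3, the cochaperone that couples HSP70 to selective autophagy and is itself induced by heat, was also lower. Its control values ranged from -0.00 to 0.45 and its overexpression values from -0.39 to -0.25, with no overlap. The log2 difference was -0.59 (SE 0.15, limma adjusted p = 0.0113), and -0.58 by quantile normalization. The inducible HSP70 genes Hspa1a and Hspa1b, which are near-identical copies, and the small heat shock protein Hspb1 (HSP25) were not well above background on any array. Their intensities were 2.4 to 8.3 units on all 6 arrays, so that no change of the main inducible HSP70 could be measured in either direction. Hspb8, the small heat shock protein that works with Bag3, was likewise not well above background, with intensities of 5.2 to 12.1.

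The cytosolic J-domain protein Dnaja1 was called lower, but on a dim probe. That probe read -5.48, -5.35 and -5.83 in control and -5.80, -6.67 and -6.79 in overexpression arrays, overlapping between groups, and was well above background on 1 of 3 overexpression arrays. It thus entered the test only through the control arrays, and its log2 difference of -0.87 (-1.13 by quantile normalization) is against a group mostly at background. The bright probe of Dnaja1 had spots that the scanner software marked as outliers and so was not tested in the main comparison; with those spots kept it read 1.47, 1.67 and 1.78 in control and 2.18, 1.72 and 2.16 in overexpression arrays, a log2 difference of 0.38 (limma adjusted p = 0.0768). The direction of Dnaja1 thus rested on the choice of probe. Of the 10 heat-inducible members 6 were tested, of which 3 were lower (Dnajb1, Bag3 and, on its dim probe, Dnaja1) and 1 was higher by percentile scaling, where 19.6% of all genes were lower and 36.9% higher. Their median was -0.25, against 0.23 over all genes, but with marked spots kept, where the bright probe stood for Dnaja1, 2 were lower and the median was 0.18.

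The higher one was Hsp90aa1, the inducible cytosolic HSP90, and only by percentile scaling. It read 3.54, 3.94 and 4.16 in control and 4.51, 4.56 and 4.85 in overexpression arrays, without overlap. The log2 difference was 0.76 (SE 0.18, limma adjusted p = 0.00934), but 0.19 by quantile normalization (adjusted p = 0.405). The constitutive Hsp90ab1 was left out of the main comparison by outlier marks and is given with marked spots kept. It read 4.59, 4.73 and 4.79 in control and 5.30, 5.57 and 5.28 in overexpression arrays, a log2 difference of 0.68 by percentile scaling (limma adjusted p = 0.00434) and 0.06 by quantile normalization.

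Hspa8, the constitutive cytosolic HSP70 that carries most housekeeping folding, had 4 tested probes, with log2 differences of 0.47 to 0.55, all past the threshold. The brightest read 5.22 and 5.07 on 2 control arrays, with the spot on the other marked as an outlier and left out of the fit, and 5.59, 5.88 and 5.62 on the overexpression arrays. Its log2 difference was 0.55 (limma adjusted p = 0.0206) by percentile scaling and -0.04 (adjusted p = 0.863) by quantile normalization. Before any scaling its intensities, marked spots included, ran from 53998 to 63794 in control and from 50432 to 62583 in overexpression arrays, which overlapped. The HSP110 exchange factor Hsph1 read 2.20 to 2.25 in control and 2.39 to 2.62 in overexpression arrays, a log2 difference of 0.28 that did not pass the threshold (limma adjusted p = 0.0755) and was 0.00 by quantile normalization. The other HSP110 genes, Hspa4 and Hspa4l, had log2 differences of 0.30 and 0.08 and did not pass either.

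Of the heat shock factors, Hsf1, the main activator of the heat shock response, read 2.02, 1.80 and 1.72 in control and 1.82, 2.07 and 1.73 in overexpression arrays. The groups overlapped, and the log2 difference was 0.03 (SE 0.15, limma adjusted p = 0.886). Hsf2, which can form mixed trimers with Hsf1, read -1.47, -1.47 and -1.69 in control and -2.19, -2.55 and -2.14 in overexpression arrays. All overexpression values were below all control values, and the log2 difference was -0.75 (SE 0.15, limma adjusted p = 0.00465), -0.77 by quantile normalization, -0.90 on the first slide and -0.45 on the second. HSF1 activity is set largely by the protein's release and phosphorylation, so its RNA level is no measure of activity.

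The promoters of Dnajb1, the member with the strongest decrease among heat-inducible genes, and of Dnaja1 are shown to give the sequence context of HSF1 targets. HSF1 binds inverted repeats of the unit GAA, and both arrangements of a pair, TTCNNGAA and GAANNTTC (each its own reverse complement, so that both strands are covered), were searched in the 250 bases before each RefSeq start site of GRCm38.p6, where 62 chaperone genes had 79 windows. A pair in either arrangement was present in 14 of those 79 windows (17.7%) and in 12.8% of 32851 windows of all genes. Of the 9 heat-inducible members with a window, 5 held a pair, namely Dnaja1, Hspa1a, Hspa1b, Hspb1 and Hsph1. A run of 3 alternating units was in 0.466% of all windows and, among the chaperone genes, in those of Dnajb6. The window of Dnajb1 lies at chr8:83607925-83608174 (plus strand) and that of Dnaja1 at chr4:40722218-40722467 (plus strand), each being the first of several start sites of its gene, and capitals mark a GAANNTTC pair.
Dnajb1: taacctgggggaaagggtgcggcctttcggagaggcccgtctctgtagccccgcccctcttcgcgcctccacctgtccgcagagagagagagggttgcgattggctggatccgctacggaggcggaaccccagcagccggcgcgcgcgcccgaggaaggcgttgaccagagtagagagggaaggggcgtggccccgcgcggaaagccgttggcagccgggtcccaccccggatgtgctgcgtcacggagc
Dnaja1: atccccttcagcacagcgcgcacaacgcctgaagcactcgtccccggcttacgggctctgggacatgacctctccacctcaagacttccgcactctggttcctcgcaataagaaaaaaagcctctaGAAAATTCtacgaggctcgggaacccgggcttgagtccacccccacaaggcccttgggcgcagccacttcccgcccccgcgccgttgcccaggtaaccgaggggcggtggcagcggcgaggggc
The Dnajb1 window held no such pair, which says only that these letters are not in it.

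Of the endoplasmic reticulum chaperones 3 were higher under both scalings. Hspa5, the HSP70 of this compartment and the sensor that restrains the unfolded protein response, read 4.05, 4.44 and 4.53 in control and 5.37 and 5.46 on 2 overexpression arrays, the spot on the other being marked as an outlier and left out of the fit. All overexpression values were above all control values. The log2 difference was 1.07 (SE 0.18, limma adjusted p = 0.00311), a 2.10-fold increase, and 0.54 (adjusted p = 0.0291) by quantile normalization. With marked spots kept, its 3 probes gave log2 differences of 0.85, 1.16 and 1.23 by percentile scaling and 0.23, 0.54 and 0.68 by quantile normalization.

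Dnajb11 (ERdj3), which binds nascent clients and passes them to BiP, read 1.94, 1.90 and 1.96 in control and 2.59, 2.86 and 2.52 in overexpression arrays. Dnajc3 (p58IPK), another lumenal J-domain partner of BiP that also restrains the kinase PERK, read -0.71, -0.74 and -0.40 in control and 0.00, 0.11 and 0.19 in overexpression arrays. In both genes the groups were fully apart. The log2 difference of Dnajb11 was 0.72 (SE 0.13, limma adjusted p = 0.00308), and 0.45 by quantile normalization. That of Dnajc3 was also 0.72 (SE 0.14, limma adjusted p = 0.00394), and 0.73 by quantile normalization, with 0.78 and 0.59 on the 2 slides. Both calls held in all 20 alternative settings. A dimmer probe of Dnajb11 was at 0.43 by percentile scaling (limma probe-level adjusted p = 0.0338). By quantile normalization that probe was at 0.36 and did not pass (adjusted p = 0.0543).

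The other tested chaperones of this compartment did not pass the threshold. Dnajb9 (ERdj4), a J-domain protein that brings BiP to the stress sensor IRE1, read -1.76, -1.48 and -1.36 in control and -1.27, -1.72 and -1.07 in overexpression arrays, overlapping, with a log2 difference of 0.18 (SE 0.19, limma adjusted p = 0.438). Dnajc10 (ERdj5), which reduces disulfide bonds, was at 0.24, Dnajc1 at -0.02, Dnajb12 at 0.19, Dnajb14 at -0.32 and Hspa13 at -0.32. Hsp90b1 was left out of the main comparison by outlier marks. With marked spots kept it read 2.96, 3.31 and 3.54 in control and 4.02, 3.76 and 4.23 in overexpression arrays, a log2 difference of 0.73 (limma adjusted p = 0.0116) that was 0.23 (adjusted p = 0.404) by quantile normalization. In all, 3 of 9 tested members of this compartment (33.3%) were higher under both scalings, against 21.6% of all genes. Their median was 0.19, against 0.23 over all genes.

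The promoters of Hspa5, Dnajc3, Hsp90b1 and Dnajb11 are shown because these genes are classical targets of the unfolded protein response. All were higher by percentile scaling, Hsp90b1 with marked spots kept, and only Hsp90b1 did not pass by quantile normalization. The endoplasmic reticulum stress element consists of CCAAT, a spacer of 9 bases and CCACG, and was searched exactly in this form on both strands of the same 250 bases. It was present in 3 windows of the chaperone genes, those of Hspa5, Dnajc3 and Hsp90b1, and in 0.113% of the 32851 windows of all genes. The first part, CCAAT, alone was in 34.2% of chaperone windows and in 33.8% of all windows. The windows lie at chr2:34771840-34772089 (plus strand), chr14:118937682-118937931 (plus strand), chr10:86705445-86705694 (minus strand) and chr16:22857595-22857844 (plus strand), and capitals mark the element.
Hspa5: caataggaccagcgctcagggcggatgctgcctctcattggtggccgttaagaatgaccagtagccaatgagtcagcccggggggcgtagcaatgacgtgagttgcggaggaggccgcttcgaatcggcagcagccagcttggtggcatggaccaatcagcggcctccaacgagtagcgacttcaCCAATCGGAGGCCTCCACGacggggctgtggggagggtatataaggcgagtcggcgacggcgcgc
Dnajc3: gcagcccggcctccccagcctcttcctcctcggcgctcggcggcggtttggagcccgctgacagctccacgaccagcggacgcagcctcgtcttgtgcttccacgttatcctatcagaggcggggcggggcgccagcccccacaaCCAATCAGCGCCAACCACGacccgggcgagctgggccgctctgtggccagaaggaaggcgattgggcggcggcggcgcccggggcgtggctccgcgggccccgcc
Hsp90b1: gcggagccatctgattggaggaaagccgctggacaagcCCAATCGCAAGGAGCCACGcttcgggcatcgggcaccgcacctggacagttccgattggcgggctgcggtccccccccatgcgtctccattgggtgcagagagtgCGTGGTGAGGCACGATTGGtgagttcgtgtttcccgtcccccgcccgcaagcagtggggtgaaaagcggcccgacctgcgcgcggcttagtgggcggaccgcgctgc
Dnajb11: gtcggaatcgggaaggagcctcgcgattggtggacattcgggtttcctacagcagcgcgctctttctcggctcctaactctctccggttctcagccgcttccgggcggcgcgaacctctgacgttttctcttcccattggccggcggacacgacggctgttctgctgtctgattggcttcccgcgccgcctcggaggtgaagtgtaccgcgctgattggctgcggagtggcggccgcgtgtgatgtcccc
The element occurred once in Hspa5 and Dnajc3 and 2 times in Hsp90b1. Dnajb11, which also rose, held CCAAT 4 times but no whole element in this form, and a match is a description of sequence, not of binding.

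**Figure D2:**
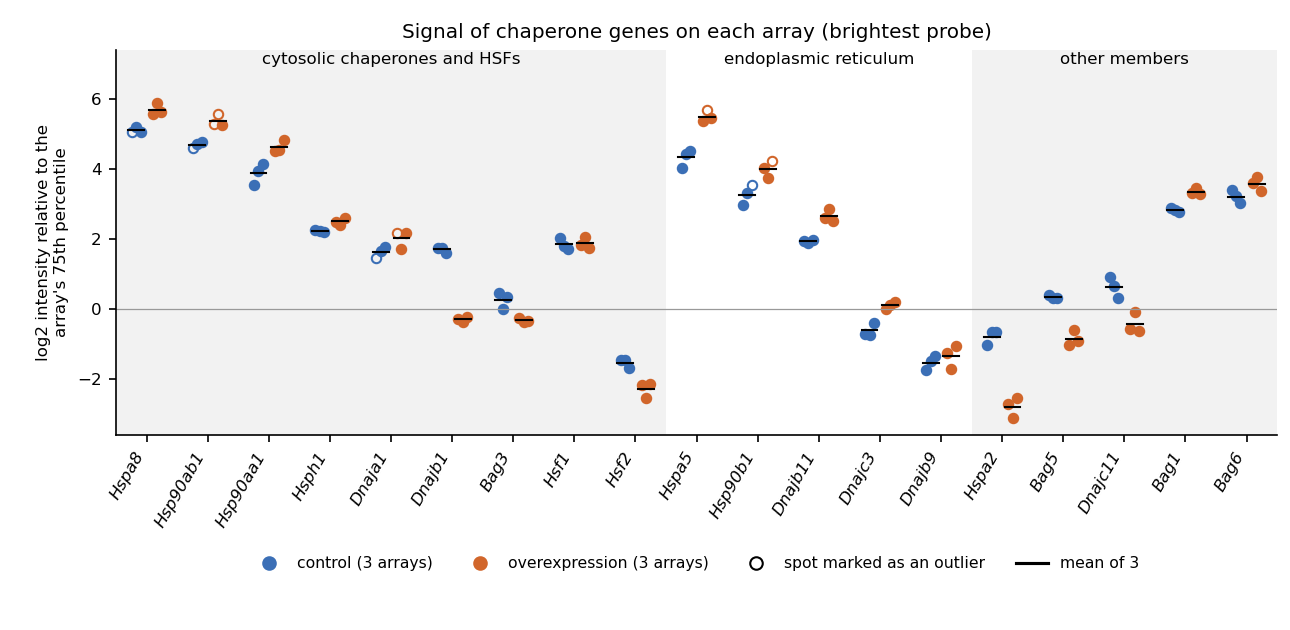
Log2 intensity of the brightest probe of 19 chaperone genes on each of the 6 arrays, relative to the array's 75th percentile; black lines are means of 3 arrays and open circles are spots marked as outliers. Dnajb1, Bag3, Hsf2, Hspa2, Bag5 and Dnajc11 are lower on every overexpression array. Hspa5, Dnajb11, Dnajc3, Hspa8, Hsp90aa1, Hsp90ab1, Hsph1, Hsp90b1 and Bag1 are higher on every one. The groups overlap for Dnaja1, Hsf1, Dnajb9 and Bag6.

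Further HSP70 genes split in direction. Hspa2, an HSP70 best known for its role in spermatogenesis, read -1.04, -0.67 and -0.65 in control and -2.73, -3.13 and -2.55 in overexpression arrays. The groups were fully apart, and the log2 difference was -2.02 (SE 0.19, limma adjusted p = 0.000185), a 4.04-fold decrease, and -2.05 by quantile normalization. The distant relatives Hspa12a and Hspa12b moved in opposite directions. Hspa12a read -3.63, -3.48 and -3.75 in control and -4.61, -4.99 and -4.37 in overexpression arrays, a log2 difference of -1.04 (limma adjusted p = 0.00234), while Hspa12b read -4.12, -4.0 and -4.21 against -3.25, -3.17 and -3.56, a difference of 0.79 (limma adjusted p = 0.00319). Both were called alike by quantile normalization, at -1.20 and 0.66, while normexp background correction with percentile scaling brought Hspa12a to -0.30 (adjusted p = 0.0683). Both lay in the dimmest 3 bins. Hspa14, a ribosome-associated HSP70, was at -0.00 and Hspa1l at 0.50, and neither passed the threshold, although Hspa1l did with the slide as a block (adjusted p = 0.0174).

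Of 7 small heat shock proteins 5 were tested, and under both scalings 3 were higher and 1 lower, against 21.6% and 18.7% of all genes. Hspb2 and Hspb3, which form a complex known from muscle, were both higher, as was Hspb6 (HSP20), and Hspb9 was lower. Hspb2 read -6.54, -6.70 and -6.25 in control arrays, where it was well above background on only 1 of 3, and -5.37, -5.22 and -5.66 in overexpression arrays, through which alone it entered the test. Its log2 difference of 1.08 (0.83 by quantile normalization) is against a group mostly at background, and it was 0.17 (adjusted p = 0.190) with normexp and quantile normalization. Hspb3 had a difference of 0.82 (0.74 by quantile normalization), Hspb6 of 0.52 (0.51), with a dimmer second probe at 1.28, and Hspb7 of 0.31, which did not pass. Hspb9 read -2.87, -2.93 and -3.04 in control and -3.74, -3.90 and -3.68 in overexpression arrays, with no overlap and a log2 difference of -0.83 (limma adjusted p = 0.00146), which was -0.95 by quantile normalization but -0.29 (adjusted p = 0.0817) with normexp and percentile scaling. All of these but Hspb6 and Hspb7 were dim probes, in the dimmest 3 of the 10 bins of signal, where the median over all genes was 0.38 to 0.62 by percentile scaling and 0.26 to 0.38 by quantile normalization.

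Among the DNAJB proteins 5 of 11 tested (45.5%) were higher and 2 (18.2%) lower by percentile scaling, against 36.9% and 19.6% of all genes. Dnajb8, a J-domain protein that suppresses aggregation of polyglutamine proteins, read -4.22, -4.08 and -4.23 in control and -3.16, -2.89 and -3.26 in overexpression arrays, fully apart, with a log2 difference of 1.07 (SE 0.14, limma adjusted p = 0.000778) and 0.94 by quantile normalization. Its probe is dim, in a bin where the median over all genes was 0.38 by percentile scaling and 0.26 by quantile normalization. The call of Dnajb8 held in all 20 alternative settings, with 0.58 as the smallest difference. Dnajb4, a cytosolic relative of Dnajb1, was higher by 0.63 (limma adjusted p = 0.0153) and by 0.65 after quantile normalization, in the direction opposite to Dnajb1. A dimmer probe of Dnajb4 passed under both scalings, at 0.65 and 0.67, while another, at 0.22 and 0.09, passed under neither. The brightest probes of Dnajb2 (0.62) and of Dnajb6 (0.58), the latter another suppressor of polyglutamine aggregation, were past the threshold only by percentile scaling, at 0.44 and 0.29 by quantile normalization. Dimmer probes of both passed under both scalings, 1 of Dnajb2 at 0.69 and 0.70, and 2 of Dnajb6 at 0.76 and 1.34 by percentile scaling and 0.60 and 1.12 by quantile normalization. Dnajb13 (0.24) passed under neither. Dnajb7 passed the background on every control array and on no overexpression array, so that it entered the test only through the control arrays. With the dim group set at the lowest signal well above background on its array, control was 1.86-fold higher. The values as read gave log2 differences of -2.21 on the first slide and -0.43 on the second. With normexp and percentile scaling the difference was 0.16. Its call as lower is thus against a group at background.

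The mitochondrial J-domain proteins did not move together. Dnajc11, an outer membrane partner of the cristae-organising complex, read 0.92, 0.65 and 0.32 in control and -0.56, -0.09 and -0.63 in overexpression arrays, fully apart, a log2 difference of -1.06 (SE 0.20, limma adjusted p = 0.00384), -1.07 by quantile normalization, that its second probe gave as -1.24. Dnajc30, which is linked to respiratory chain complexes, was lower by a log2 difference of -0.83 (limma adjusted p = 0.00575), and -0.82 by quantile normalization. Dnaja3 (Tid1), the J-domain partner of mitochondrial HSP70 in the matrix, read -0.29, -0.15 and -0.26 in control and 0.06, 0.30 and 0.10 in overexpression arrays, a difference of 0.39 (SE 0.13, limma adjusted p = 0.0295) that held in 8 of 20 alternative settings. These values are of its dimmer probe, the brighter one being left out by outlier marks. With marked spots kept the brighter probe of Dnaja3 gave 0.18 (limma adjusted p = 0.197), and 0.05 (adjusted p = 0.751) by quantile normalization. Dnajc15, an inner membrane protein of the import motor, was at 0.45 (limma adjusted p = 0.0188) and at -0.02 by quantile normalization. Of these 4 genes 2 were thus lower under both scalings, against 18.7% of all genes. Another 1, Dnaja3 on its dimmer probe, was higher under both, against 21.6% of all genes. Their median was -0.22 by percentile scaling, against 0.23 over all genes.

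Of the 23 tested DNAJC genes 5 (21.7%) were higher and 4 (17.4%) lower by percentile scaling, against 36.9% and 19.6% of all genes, with a median of 0.18, and only Dnajc3 was higher under both scalings. Besides Dnajc11 and Dnajc30 the lower ones were Dnajc12, known as a cochaperone of aromatic amino acid hydroxylases, at -0.62 (limma adjusted p = 0.0129), and Dnajc16 at -0.48 (limma adjusted p = 0.0103), both also called by quantile normalization. Dnajc2, a ribosome-associated J-domain protein, Dnajc21 and Dnajc28 were higher at 0.63, 0.51 and 0.56 by percentile scaling and did not pass by quantile normalization. Dnajc8, which is found with splicing factors, was the reverse case, at -0.14 by percentile scaling and called at -0.63 by quantile normalization. The brightest probes of the other 13 lay between -0.19 and 0.70 and passed under neither scaling, among them the endosomal Dnajc13 (0.70, with 1 control array at -1.54 and the others at -0.71 and -0.64), Dnajc5, the cysteine string protein of secretory vesicles (0.27), and Dnajc7 (0.33). A dimmer probe of Dnajc5 passed under both scalings, at 0.82 and 0.80. With the slide as a block Dnajc13 (adjusted p = 0.0383) and Dnajc25 (0.42, adjusted p = 0.0285) passed. Dnajc6, auxilin of clathrin-coated vesicles, and Dnajb3 were not well above background on any array, Dnajc14 and Dnaja2 were left out by outlier marks (log2 differences of -0.22 and 0.38 with marked spots kept), and Dnajb5 had no probe. Dnaja4, a dim probe, was at 0.31 and did not pass.

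Of the BAG proteins taken with Hspbp1, 7 genes in all, 2 were lower (28.6%, against 19.6% of all genes) and 1 higher by percentile scaling. Bag5, an exchange factor with several BAG domains that acts on HSP70 and parkin, read 0.40, 0.30 and 0.32 in control and -1.05, -0.61 and -0.91 in overexpression arrays. The groups were fully apart, and the log2 difference was -1.20 (SE 0.14, limma adjusted p = 0.000581), a 2.29-fold decrease, -1.18 by quantile normalization, with -1.18 and -1.23 on the 2 slides. Bag1, which links HSP70 to the proteasome, read 2.88, 2.83 and 2.76 in control and 3.31, 3.47 and 3.28 in overexpression arrays, a difference of 0.53 (limma adjusted p = 0.00703) that was 0.12 (adjusted p = 0.478) by quantile normalization. Bag6, which guides tail-anchored proteins, read 3.39, 3.23 and 3.03 against 3.61, 3.79 and 3.37, overlapping, with a difference of 0.37 (limma adjusted p = 0.0742), -0.10 by quantile normalization, while a dimmer probe of it passed at 0.58 by percentile scaling (probe-level adjusted p = 0.0276) and not by quantile normalization (0.28). Bag2 was at -0.34, Bag4 at -0.16 and the HSP70 exchange factor Hspbp1 at 0.37, none past the threshold. With the slide as a block Bag2 (limma adjusted p = 0.0440), Bag6 (0.0248) and Hspbp1 (0.0360) passed in these directions. The rule also took Hspb11, an intraflagellar transport protein despite its name, at 0.67 by percentile scaling and 0.35, not past the threshold, by quantile normalization, and Hspbap1 at 0.17, which did not pass.

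The dependence on scaling followed the brightness of the probes. Of the 10 members higher by percentile scaling but not by quantile normalization, 9 were in the brightest 2 of the 10 bins of signal, as were 24 of all 65 tested members, and Dnajc28 was the exception. No member was called in opposite directions.

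**Figure D3:**
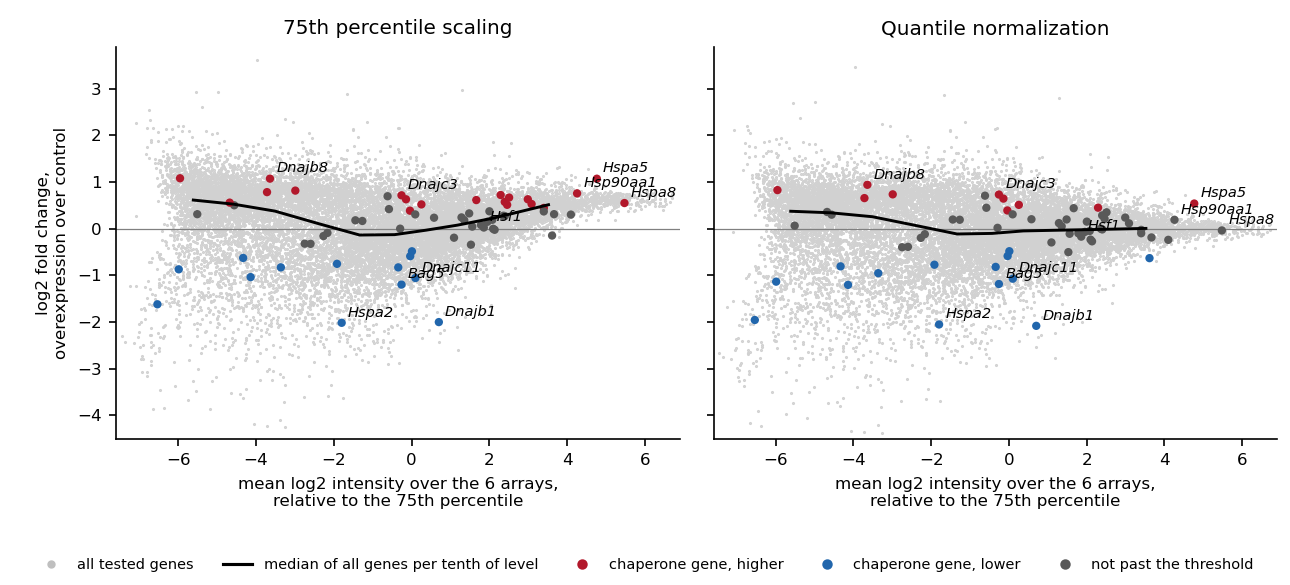
Log2 fold change against mean log2 intensity over the 6 arrays for all 17063 tested genes (grey) and the 65 chaperone genes (coloured by call), by percentile scaling (left) and quantile normalization (right). The black line, the median of all genes per bin of level, rises to 0.52 for the brightest bin on the left and stays at 0.01 there on the right, where Hspa8 and Hsp90aa1 are no longer past the threshold and Dnajb1 and Hspa2 keep their place.

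Several probes were tested for 25 of the members, with p-values adjusted over all probes tested. In no gene did probes pass the threshold in both directions, but in 8 they had both signs. One probe of Hspa14 was lower (-0.87) where the brightest was at -0.00, 1 of Dnajc18 was lower (-0.87) where the brightest was at 0.31, and 1 of Dnajb12 was lower (-0.40) where the brightest was at 0.19. The 5 probes of Dnajb6 ranged from 0.05 to 1.34, and Dnaja4 (0.31 and 1.05), Dnajc5 (0.27 and 0.82) and Dnajc8 (-0.75 to 0.07) also differed by probe. The second probe of Dnaja4, the lower one of Dnajc8 and the lower ones of Hspa14, Dnajc18 and Dnajb12 passed under both scalings. That probe of Dnaja4 was well above background on only 4 of 6 arrays. It thus entered the test through 1 group alone, and its difference is against a group mostly at background. Another 2 probes of Hsph1 were past the threshold at 0.35 and 0.58 by percentile scaling, but not by quantile normalization (0.34 and 0.33). The single value given for these genes is that of the brightest probe, and which transcripts each probe sees was not examined here.

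**Figure D4:**
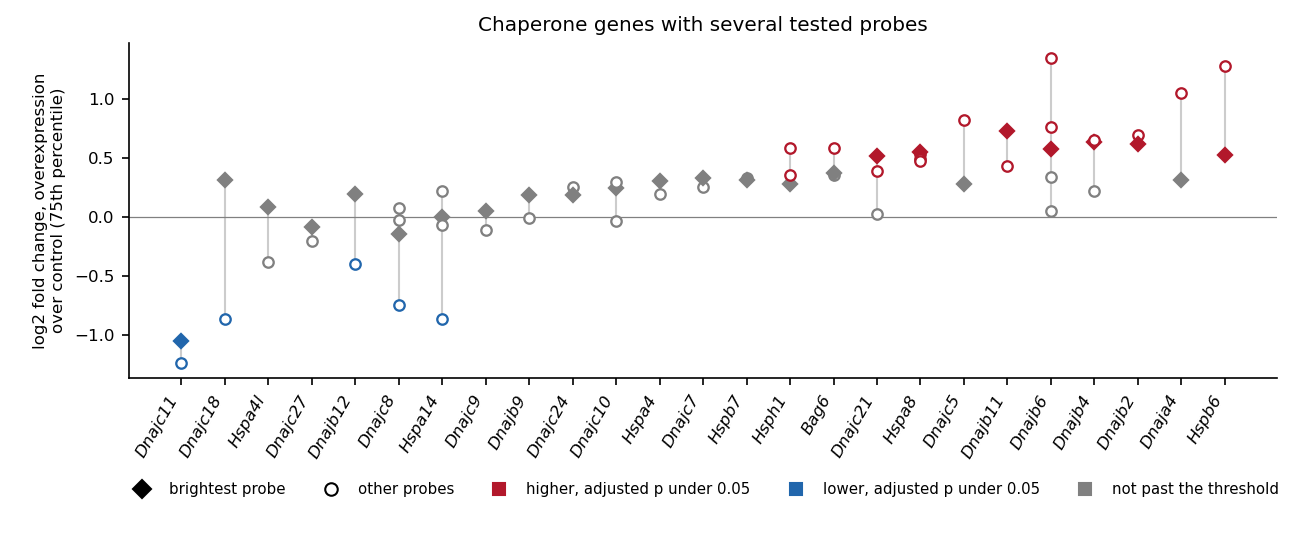
Log2 fold change by percentile scaling of each tested probe of the 25 chaperone genes with several tested probes, ordered by their median. Diamonds are the brightest probe, circles the others, and colour marks an adjusted p under 0.05; probes of Dnajc11, Hspa8 and Dnajb2 lie close together, while those of Dnajb6 and Dnajc18 lie far apart.

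The other genes of protein folding were counted from lists set beside the chaperones, 64 of 70 being tested. By percentile scaling 40 (62.5%) were higher, against 36.9% of all genes, and 2 lower. Under both scalings 10 (15.6%) were higher, against 21.6% of all genes, and 2 (3.13%) lower, against 18.7%, so that the share called higher lay above that of all genes by percentile scaling and below it under both. In the list of endoplasmic reticulum folding and the unfolded protein response 14 of 28 were higher and 1 lower by percentile scaling, and 8 (28.6%) were higher under both. Sdf2l1, a partner of Dnajb11, had the strongest increase, at 1.07 (SE 0.13, limma adjusted p = 0.000687) and 0.64 by quantile normalization, from 2.69 to 2.88 in control to 3.68 to 4.0 in overexpression arrays. The secreted stress protein Manf (1.05), the disulfide isomerase P4hb (1.02), the oxidase Ero1a (0.97), Herpud1 (0.78), Pdia4 (0.75), the BiP exchange factor Hyou1 (0.70) and Erp44 (0.63) were the others higher under both scalings. Sel1l, which scaffolds the degradation of misfolded proteins of this compartment, went the other way, from 1.78 to 1.95 in control to 0.47 to 0.66 in overexpression arrays, a log2 difference of -1.30 (SE 0.12, limma adjusted p = 0.000204), and -1.42 by quantile normalization. The stress sensors and factors Xbp1 (-0.04), Atf6 (0.23) and Ern1 (0.32) did not pass.

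Of 13 tested subunits of the chaperonin TRiC and of prefoldin 12 (92.3%) were higher by percentile scaling, against 36.9% of all genes, with a median of 0.55, where the median of all genes in the brightest bin, their middle one, was 0.52. The median was 0.06 by quantile normalization. Cct6b (0.49, and 0.37 by quantile normalization) was called under both, on a dim probe. In its bin the median over all genes was 0.38 by percentile scaling and 0.26 by quantile normalization. Of the 9 tested mitochondrial chaperones and import factors 7 (77.8%) were higher by percentile scaling, against 36.9% of all genes, among them Hspd1 at 0.61, Hspa9 at 0.55 and Hspe1 at 0.54. Their median was 0.41 there and -0.01 by quantile normalization, where these 3 genes were at 0.03, 0.04 and -0.01 and did not pass the threshold. Of 14 cochaperones of HSP70 and HSP90 7 were higher and 1 lower by percentile scaling, and the medians were 0.35 and -0.02. Chordc1, a heat-inducible HSP90 partner, fell by a log2 difference of -0.71 (SE 0.12, limma adjusted p = 0.00249), with -0.70 by quantile normalization, and the cochaperone Ttc4 (0.38) was the one higher under both.

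**Figure D5:**
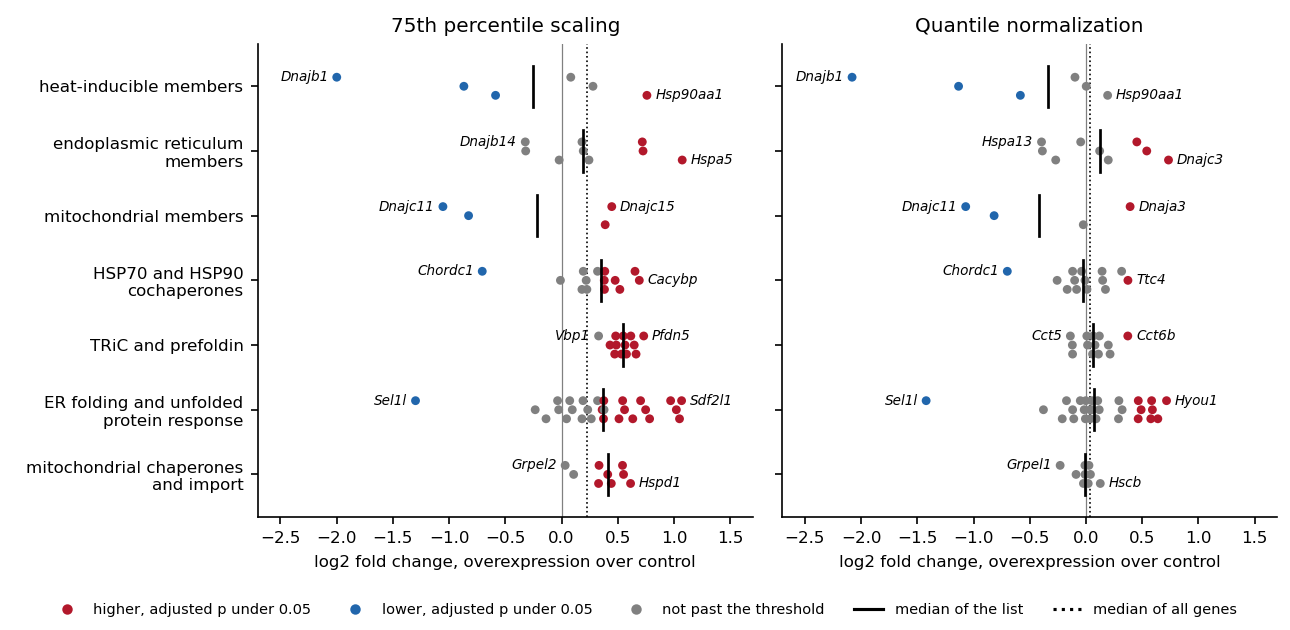
Log2 fold change of the tested genes of 3 member sets and 4 lists of other folding genes, by percentile scaling (left) and quantile normalization (right); black bars are list medians and the dotted line is the median of all genes. The medians of TRiC with prefoldin and of the mitochondrial chaperones are 0.55 and 0.41 on the left and 0.06 and -0.01 on the right, whereas Dnajb1, Sel1l and Chordc1 stay low and Hspa5, Dnajc3 and Sdf2l1 stay high on both sides.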

How the data were processed

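RNA of LPS-treated BV2 cells had been hybridised to Agilent mouse arrays of 1 colour, 3 per group, on 2 slides. The labels name Cy3 as the dye and the paper's methods Cy5, and the columns used are of the green channel. The deposited intensity values had been background-subtracted and spatially detrended by the authors with Agilent Feature Extraction 11.5.1.1 and were not scaled between arrays. Also deposited were the authors' GeneSpring-normalized log2 values of 42110 probes, used as an alternative.

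The log2 intensity minus the array's 75th percentile over 59305 non-control spots was taken, omitting spots marked as outliers (149 to 1590 on an array), and replicate spots were averaged. Of 56605 probes, 33767 (59.7%) were matched by accession to a RefSeq mouse symbol. Tested were probes with values on 2 or more arrays per group that exceeded background on every array of 1 group or both, and the brightest stood for its gene. No spot was saturated. The number of arrays limits the precision. Groups were compared with limma 3.58.1 in R 4.3.3, two-sided, over 17063 genes, and the fit was tested on simulated data. An exact permutation test of 3 against 3 arrays cannot go below p = 0.1, so none was used.

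Genes given with values on each array were the principal member of each class and, in each class, the largest change in each direction called under both scalings, and other members named by value are given to account for the whole family. The members, classes and lists were chosen with earlier results of these data known. Keeping marked spots was an alternative chosen after seeing the data. Promoter windows came from RefSeq sequences of GRCm38.p6.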

Additional observations from a re-analysis of the deposited data

How the results depend on the processing

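The scaling decided much of the counts called higher. Those called lower by percentile scaling and quantile normalization were 13 and 14 for chaperone genes, and 2 and 2 for other folding genes. Chaperone genes called higher numbered 20, but 10 by quantile normalization, 9 with normexp background correction and quantile normalization, 12 with the authors' log2 values, 11 with marked spots kept and quantile normalization, 3 with a 2-fold change required, and 15 to 21 with each array left out. Those called lower numbered 13, but 8 with normexp and percentile scaling, 6 with a 2-fold change, and 12 or 13 with each array left out. The median of the chaperone genes minus that of all genes, 0.016, was -0.069 with no filter on dim probes, and -0.058 to 0.053 with each array left out. Other folding genes called higher numbered 40, but 10 by quantile normalization, 24 by median scaling, 9 with normexp and quantile normalization, 10 with the authors' values, 11 with marked spots kept and quantile normalization, 3 with a 2-fold change, and 21 (without control replicate 1) to 33 with each array left out, including 24 without overexpression replicate 1 and 26 without control replicate 2. Those called lower numbered 2, but 4 with the probes of a gene averaged, 4 with marked spots kept and quantile normalization, and 1 with a 2-fold change. Shares of all genes are given above only for percentile scaling, quantile normalization and the 2-fold change. The counts under the other settings are thus not set against all genes.

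Among the chaperone genes, directions turned as follows. Hspa8 was -0.036 by quantile normalization, -0.069 with normexp and quantile normalization, -0.079 with the authors' values and -0.057 with marked spots kept and quantile normalization, and Dnajc15 was -0.024, -0.048 and -0.049 by the first, the third and the last of these. Hspa4 was called at -0.34 with normexp and quantile normalization. With normexp and percentile scaling Dnaja1 was 0.17, Dnajb7 0.16 and Dnajc12 0.00069. Dnaja1 was also 0.22 with no filter, without control replicate 1 and without overexpression replicate 1, where its bright probe stood for it (range with each array left out -1.01 to 0.22), and 0.38 and 0.18 with marked spots kept, by percentile scaling and quantile normalization. Other causes were not tested. Of the values of single genes under the alternatives, 1248 kept their direction and call, 75 were weaker, 54 stronger and 16 turned.

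Replicate numbers did not pair the arrays throughout, since deviations of arrays with the same number correlated at -0.16, 0.07 and 0.60. The last value is of the arrays on the second slide. Control and overexpression arrays correlated at -0.16 to 0.50 within the first slide and at -0.51 to -0.03 between slides. The main fit held no term for the slide. With the replicate number as a block, 24 chaperone genes were higher and 13 lower, and with the slide as a block 25 and 14. The shares of all genes called in these block fits are not given, so the counts cannot be read as particular to the chaperones. All 33 called members had the same direction on both slides, which is no separate check, since they were called on these same arrays.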
